A study of Mus musculus with 8 samples.

Results

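The aryl hydrocarbon receptor (AHR) and the genes around it were followed in mouse embryonic fibroblasts (MEFs, primary connective tissue cells taken from embryos). The account covers 6 genes: the receptor Ahr, its partner Arnt, the feedback genes Ahrr and Tiparp, and the cytochrome P450 genes Cyp1a1 and Cyp1b1. They are 6 of the 54838 gene rows deposited, found by matching the row identifiers to their symbols in GENCODE vM21. The 6 genes were chosen from measured values of these same 8 libraries, so their levels and fold changes are given as a description. Whether edgeR called a gene is printed for the 6 only beside the share of all genes called, as no test of them, and nothing is read from it. All 6 passed the filter on low counts in every comparison, Cyp1a1 only through groups other than n-Sen in the 2 comparisons that include n-Sen.

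Polyadenylated RNA was sequenced from 8 libraries in 4 groups of 2. The proliferating group holds cells whose treatment is given as control. The n-Sen group holds cells made senescent through nutlin3a, which frees p53 from MDM2. Per the protocol, cells were arrested in G2 by RO3306, a CDK1 inhibitor, then given RO3306 with nutlin3a, then nutlin3a alone for 48 h, and last the PLK1 inhibitor BI-2536 at 100 nM for 14 days to remove cells that still divided. The n-Sen_control and n-Sen_alkali groups hold such cells after 24 h in HEPES-buffered, pH-adjusted medium, control or alkaline by the titles. The labels give neither the pH values nor the genotype, strain or passage of the MEFs. Whether the n-Sen group also had HEPES-buffered medium is not stated. The shared growth conditions were 10% serum, 5% CO2 and low oxygen (3 to 5%).

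AHR is a transcription factor of the bHLH-PAS family that binds small molecules, among them dioxins, polycyclic aromatic compounds and tryptophan metabolites such as kynurenine. Without ligand it waits in the cytoplasm with HSP90 and p23. With ligand it moves to the nucleus, pairs with ARNT and binds xenobiotic response elements in genes such as Cyp1a1 and Cyp1b1, whose enzymes oxidise many AHR ligands. AHRR competes for ARNT and represses the pathway, and TIPARP is a mono-ADP-ribosyltransferase that modifies AHR and lowers its activity, so both close a feedback loop. ARNT is also the partner of the hypoxia-inducible factors (HIF).

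The sequences upstream of Ahrr, Tiparp, Cyp1a1 and Cyp1b1 are shown because these 4 genes were higher in control medium than in n-Sen and lower in alkaline than in control medium. That of Arnt is shown as the gene with the smallest change between the media. Ahr was also lower in alkaline medium, but the set of upstream sequences used here had no entry for it. The sequences shown come from RefSeq on GRCm38.p6 and run 5′ to 3′ on the strand of the gene. Each holds up to 250 bases before the RefSeq start and is limited to bases outside vM21 exons. Capitals mark the core of the xenobiotic response element, GCGTG, read as CACGC where the match is on the opposite strand.
Ahrr: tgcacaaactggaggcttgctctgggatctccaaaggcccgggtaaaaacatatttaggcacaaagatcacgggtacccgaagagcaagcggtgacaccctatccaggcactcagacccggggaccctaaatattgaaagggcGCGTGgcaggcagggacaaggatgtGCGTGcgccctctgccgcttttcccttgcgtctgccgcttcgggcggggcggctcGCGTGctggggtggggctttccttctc
Tiparp: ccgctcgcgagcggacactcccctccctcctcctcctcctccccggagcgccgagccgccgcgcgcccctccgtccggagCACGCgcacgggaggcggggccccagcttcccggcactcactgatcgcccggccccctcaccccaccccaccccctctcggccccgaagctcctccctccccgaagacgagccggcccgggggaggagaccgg
Cyp1a1: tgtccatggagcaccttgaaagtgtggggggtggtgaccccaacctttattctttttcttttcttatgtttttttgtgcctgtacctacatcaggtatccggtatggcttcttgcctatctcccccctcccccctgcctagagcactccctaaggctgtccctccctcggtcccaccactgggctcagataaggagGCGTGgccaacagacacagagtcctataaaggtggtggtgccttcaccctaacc
Cyp1b1: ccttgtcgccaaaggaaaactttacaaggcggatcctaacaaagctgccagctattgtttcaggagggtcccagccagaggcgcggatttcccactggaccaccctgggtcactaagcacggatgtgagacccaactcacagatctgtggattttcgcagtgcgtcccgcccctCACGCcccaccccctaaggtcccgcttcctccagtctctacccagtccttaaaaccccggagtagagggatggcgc
Arnt: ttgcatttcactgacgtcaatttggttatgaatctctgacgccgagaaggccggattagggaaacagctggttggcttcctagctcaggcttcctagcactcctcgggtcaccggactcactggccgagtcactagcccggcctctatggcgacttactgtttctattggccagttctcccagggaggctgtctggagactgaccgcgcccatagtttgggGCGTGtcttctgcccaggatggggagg

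The Ahrr window (chr13:74292332-74292581, minus strand) holds 3 cores, which begin 107, 82 and 27 bases before the start, and 1 of them is part of the longer form TNGCGTG. The Tiparp window (chr3:65528197-65528409, plus strand) holds 1 core, 170 bases before the start. The Cyp1a1 window (chr9:57697363-57697612, plus strand) holds 1, at 54 bases, and lies within the span of the vM21 gene, outside its exons. The Cyp1b1 window (chr17:79715062-79715311, minus strand) holds 1, at 76 bases, and the Arnt window (chr3:95434140-95434387, plus strand) holds 1, at 29 bases. Searched on both strands, GCGTG was present in 28.2% of 32851 RefSeq windows of 250 bases and TNGCGTG in 4.1%. The same 5 letters also fit the HIF element, which reads ACGTG or GCGTG. A match is a description of the letters and was not tested as a binding site.

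Total counts ran from 40608517 to 54183060 per library. The labels do not say whether the replicates are separate cultures, so the spread between them, and every p built on it, may be technical only. Fibroblast markers (Col1a1, Dcn, Vim and 5 others) summed to between 10970 and 16970 CPM (counts relative to library size, after TMM scaling) in all libraries, but did not move as one. Of the 8, 6 rose and 2 fell in n-Sen against proliferating cells, in n-Sen_control against n-Sen none rose and 1 fell, and in n-Sen_alkali against n-Sen_control 3 rose and 4 fell. Pdgfra, a receptor for platelet-derived growth factor, averaged 87.9 CPM in proliferating cells, 9.81 in n-Sen, 10.3 in n-Sen_control and 5.01 in n-Sen_alkali. Thy1, a surface marker, averaged 444, 381, 388 and 262.5 CPM in the same order. The 10 macrophage markers summed to 46.3 to 51.0 CPM in proliferating cells, 1092 to 1159 in n-Sen, 1061 to 1122 in n-Sen_control and 986 to 988 in n-Sen_alkali, and none was at 0 in a group. Macrophage markers passed the test upward in 10 of 10 cases in n-Sen against proliferating cells (median log2 fold change 4.30), and 1 passed downward in n-Sen_control against n-Sen. Between the media, 6 of 10 passed downward in n-Sen_alkali (median -0.29). Over all genes tested, 34.0% passed upward and 33.1% downward in n-Sen against proliferating cells. The shares were 6.18% and 4.96% in n-Sen_control against n-Sen, and 9.58% and 10.4% between the media. The part of these marker lists in the results below was not tested. The 6 endothelial markers summed to at most 32.95 CPM and the 6 epithelial ones to at most 71.5 CPM, both sums highest in proliferating cells. Of the epithelial ones, Epcam, Krt8, Krt18 and Krt19 were highest in proliferating cells, Krt19 with 55.95 CPM. Cldn4 and Cdh1 were highest in n-Sen_alkali (6.83 and 0.773 CPM, against 0.495 and 0.0199 in proliferating cells). Cldn5 was at 0 in all groups and Epcam in the 3 senescent ones. In bulk RNA, fewer cells of a type and less RNA per cell cannot be told apart.

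Ahr encodes the receptor itself (chr12:35497974-35535038, minus strand). It measured 17.5 and 19.6 CPM in the proliferating libraries, 26.1 and 28.4 in n-Sen, 22.2 and 24.5 in n-Sen_control, and 7.95 and 8.955 in n-Sen_alkali. The groups did not overlap: alkaline medium gave the lowest libraries, followed by proliferating cells, n-Sen_control and n-Sen. The log2 fold change was 0.56 ± 0.0961 (SE) in n-Sen against proliferating cells and -0.22 ± 0.0965 in n-Sen_control against n-Sen. Alkaline against control medium, Ahr fell by 1.47 ± 0.106 on the log2 scale, which is 2.77-fold lower. Set against n-Sen, the alkaline libraries were 3.22-fold lower.

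Arnt encodes the nuclear partner (chr3:95434388-95497240, plus strand). It measured 58.8 and 57.6 CPM in proliferating cells, 73.5 and 72.3 in n-Sen, 62.8 and 71.8 in n-Sen_control, and 72.3 and 71.4 in n-Sen_alkali. Proliferating cells were lowest, and the 3 senescent groups overlapped in part: n-Sen_control with n-Sen_alkali, and n-Sen_alkali with n-Sen. Arnt rose by 0.33 ± 0.0619 on the log2 scale in n-Sen against proliferating cells. Its values of -0.11 ± 0.0633 (n-Sen_control against n-Sen) and 0.086 ± 0.0628 (n-Sen_alkali against n-Sen_control) were smaller.

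Ahrr encodes the repressor (chr13:74211118-74292331, minus strand). It measured 9.05 and 8.28 CPM in proliferating cells, 6.69 and 7.89 in n-Sen, 22.8 and 21.8 in n-Sen_control, and 7.68 and 8.09 in n-Sen_alkali. Only the control medium libraries stood high, and the n-Sen and alkaline libraries overlapped. The log2 fold change was -0.24 ± 0.142 in n-Sen against proliferating cells. In n-Sen_control it was 1.61 ± 0.117 above n-Sen (3.06-fold). In n-Sen_alkali it was 2.84-fold below n-Sen_control (log2 fold change -1.51 ± 0.104).

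Tiparp (chr3:65528410-65555518, plus strand) measured 45.0 and 44.6 CPM in proliferating cells, 25.25 and 24.99 in n-Sen, 99.5 and 96.9 in n-Sen_control, and 60.9 and 60.6 in n-Sen_alkali. No 2 groups overlapped, with n-Sen lowest and n-Sen_control highest. Tiparp fell by 0.83 ± 0.0766 on the log2 scale in n-Sen against proliferating cells and was 3.91-fold higher in n-Sen_control than in n-Sen (1.97 ± 0.0615). In alkaline medium it was 1.63-fold lower than in control medium (-0.70 ± 0.0541) and remained 2.42-fold above n-Sen. The exons of Tiparp overlap the opposite-strand gene 4931440P22Rik, which had 100 to 114 counts in proliferating cells, 66 to 86 in n-Sen, 254 to 283 in n-Sen_control and 124 to 140 in n-Sen_alkali. Those of Ahr overlap Gm48236, with 8 to 40 counts per library. Whether the counting used strand is not stated, so each pair may have shared reads.

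Cyp1a1, the P450 gene most used as a readout of AHR activity (chr9:57687928-57703824, plus strand), was near its detection limit in the proliferating and n-Sen groups. The proliferating libraries had 16 and 20 counts (0.384 and 0.398 CPM) and the n-Sen libraries 4 and 2 counts (0.0857 and 0.0370 CPM). The n-Sen_control libraries had 1988 and 2349 counts (40.8 and 47.2 CPM), and the n-Sen_alkali libraries 534 and 595 (13.2 and 13.5 CPM). All groups were apart, in the order n-Sen, proliferating, alkaline, control. The ratio of n-Sen_control to n-Sen, from 4337 and 6 counts, was 739, with a 95% counting interval from 339 to 2010. Alkaline medium gave a ratio to n-Sen of 225 (103 to 613) and was 3.31-fold below control medium (log2 fold change -1.725 ± 0.0876). The ratio of n-Sen to proliferating cells was 0.152 (0.0524 to 0.365), and these intervals cover counting error only. The fitted log2 fold changes were -2.65 ± 0.773 in n-Sen against proliferating cells and 9.46 ± 0.218 in n-Sen_control against n-Sen, and they rest on the 6 counts of n-Sen. The first was -2.15 without n-Sen replicate 2 and -2.62 without proliferating replicate 2. Without n-Sen replicate 1 the fitted values were -3.3 and 10.1.

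Cyp1b1, the P450 gene that is the main one of its family in many mesenchymal cells (chr17:79701537-79715061, minus strand), was well expressed throughout. It measured 335 and 333 CPM in proliferating cells, 327 and 337 in n-Sen, 775 and 837 in n-Sen_control, and 455 and 468 in n-Sen_alkali. The n-Sen and proliferating libraries overlapped (log2 fold change -0.0065 ± 0.0475), and the n-Sen_control and n-Sen_alkali libraries lay above them. Cyp1b1 was 2.43-fold higher in n-Sen_control than in n-Sen (1.28 ± 0.0451) and 1.76-fold lower in n-Sen_alkali than in n-Sen_control (-0.81 ± 0.0426). Alkaline medium remained 1.39-fold above n-Sen.

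**Figure D1:**
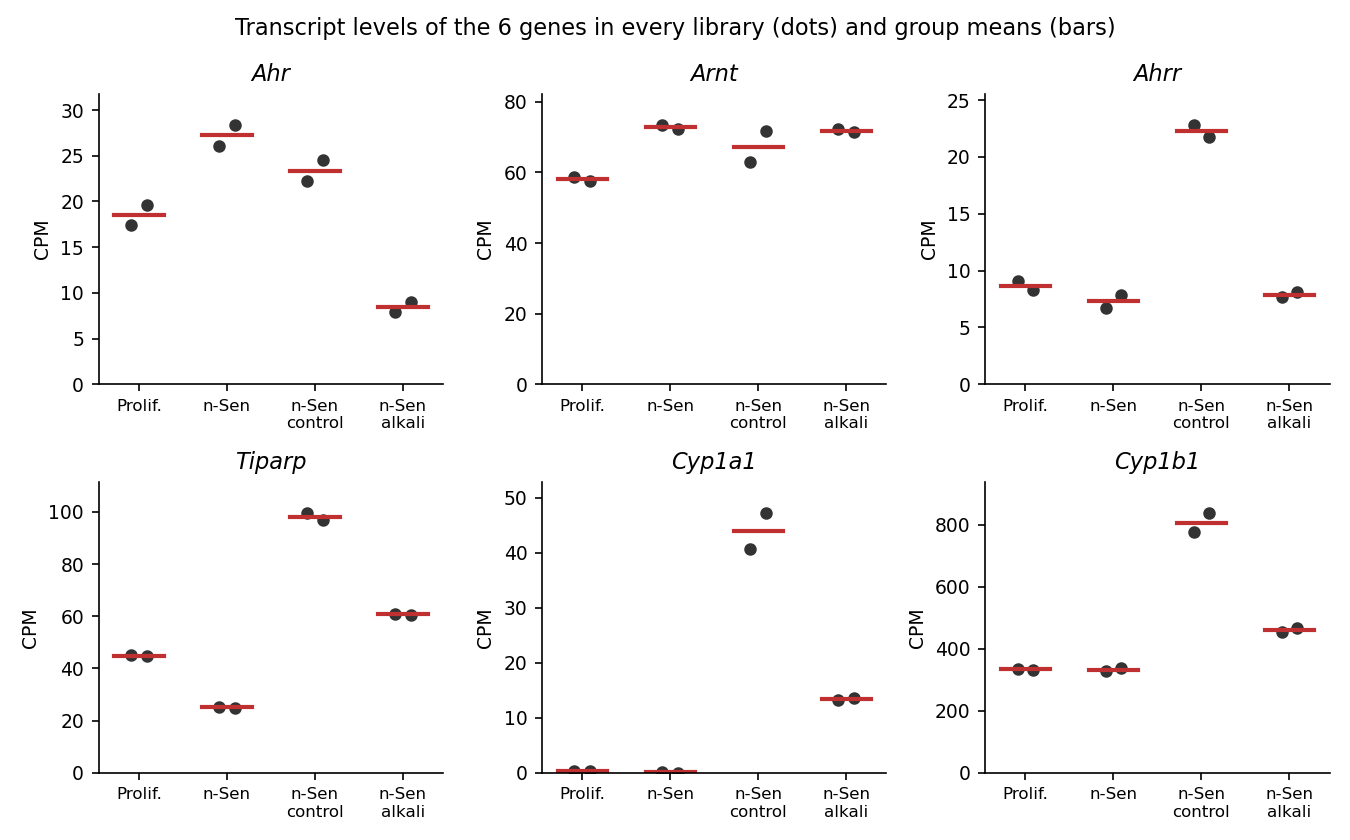
Level of each of the 6 genes in CPM (y axis, from 0) in the 4 groups (x axis); dots are the 2 libraries of a group and red bars the group mean. Ahrr, Tiparp, Cyp1a1 and Cyp1b1 are highest in n-Sen_control, while Ahr is lowest in n-Sen_alkali (7.95 and 8.955 CPM) and Arnt varies least.

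Levels can be compared between genes only per transcript length, as RPKM (reads per kilobase of vM21 exon, scaled to library size as CPM is). In proliferating cells Cyp1b1 stood highest at 57.2 ± 0.313 RPKM (SD, n = 2), followed by Tiparp at 10.3, Arnt at 7.27, Ahr at 3.01, Ahrr at 0.918 and Cyp1a1 at 0.140. In n-Sen_control Cyp1b1 measured 138 ± 7.50 RPKM and Tiparp 22.5 ± 0.423. Cyp1a1, at 15.8 ± 1.63 RPKM, then stood above Arnt (8.41 ± 0.793), Ahr (3.79 ± 0.268) and Ahrr (2.36 ± 0.0792). In n-Sen_alkali Arnt, at 8.97 RPKM, was again above Cyp1a1, at 4.80, while Ahr had 1.37 and Ahrr 0.835. The summed level of the 6 genes was 463 to 466 CPM in proliferating cells, 459 to 471 in n-Sen, 1023 to 1099 in n-Sen_control and 617 to 630 in n-Sen_alkali, most of it from Cyp1b1.

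The first comparison, n-Sen against proliferating cells, asks what differs in senescent cells. Nutlin3a, BI-2536 and the time in culture go with senescence and cannot be told apart from it. Ahr and Arnt were higher, and Tiparp and Cyp1a1 lower. The log2 fold changes of Ahrr and Cyp1b1 were -0.244 and -0.0065. In edgeR (quasi-likelihood, p adjusted by Benjamini and Hochberg over all 19264 genes tested, threshold 0.05), 67.1% of genes passed, 34.0% upward and 33.1% downward. Beside that share, 2 of the 6 genes were called upward and 2 downward. The 2 groups were apart, with no overlap between libraries, for 5 of the 6 genes and for 83.4% of all genes. Markers of proliferation fell in 4 of 4 cases (from 1127 to 1131 CPM summed, to 26.4 to 32.9) and the macrophage markers rose alongside, as given above. Their part in these values was not tested.

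The second comparison sets n-Sen_control, after 24 h in buffered medium at the control pH, against n-Sen. Whether n-Sen also had buffered medium is not stated. These groups lie in different deposited tables, so the medium and the table cannot be told apart. Cyp1a1, Tiparp, Ahrr and Cyp1b1 were higher in n-Sen_control. Ahr and Arnt were lower, with log2 fold changes of -0.223 and -0.115. Of all 20215 genes tested 11.1% were called, 6.18% upward and 4.96% downward, and of the 6 genes 4 were called upward and none downward. All 6 were without overlap, as were 52.0% of all genes. The count over all genes rests on every library: 2253 passed in the full fit and 1268, 1382, 1181 and 1302 without n-Sen_control replicate 1 or 2 or n-Sen replicate 1 or 2. The summed macrophage markers overlapped between these groups (1061 to 1122 against 1092 to 1159 CPM).

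The third comparison, n-Sen_alkali against n-Sen_control, is the one the study was designed around: how an alkaline medium changes senescent cells. Ahr, Ahrr, Tiparp, Cyp1a1 and Cyp1b1 were all lower, by 1.63-fold to 3.31-fold. The log2 fold change of Arnt was 0.086, and its libraries overlapped between the media. Of the 6 genes 5 were called downward and none upward. Over all 19129 genes tested 20.0% were called, 9.58% upward and 10.4% downward. Control and alkaline libraries were apart for 5 of the 6 genes and for 56.7% of all genes. This comparison and the one before it share the n-Sen_control libraries, and both comparisons with n-Sen share its libraries, so their values are set side by side only. The median log2 fold change over all genes was 0.0015, 0 and -0.0093 in the 3 comparisons.

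**Figure D2:**
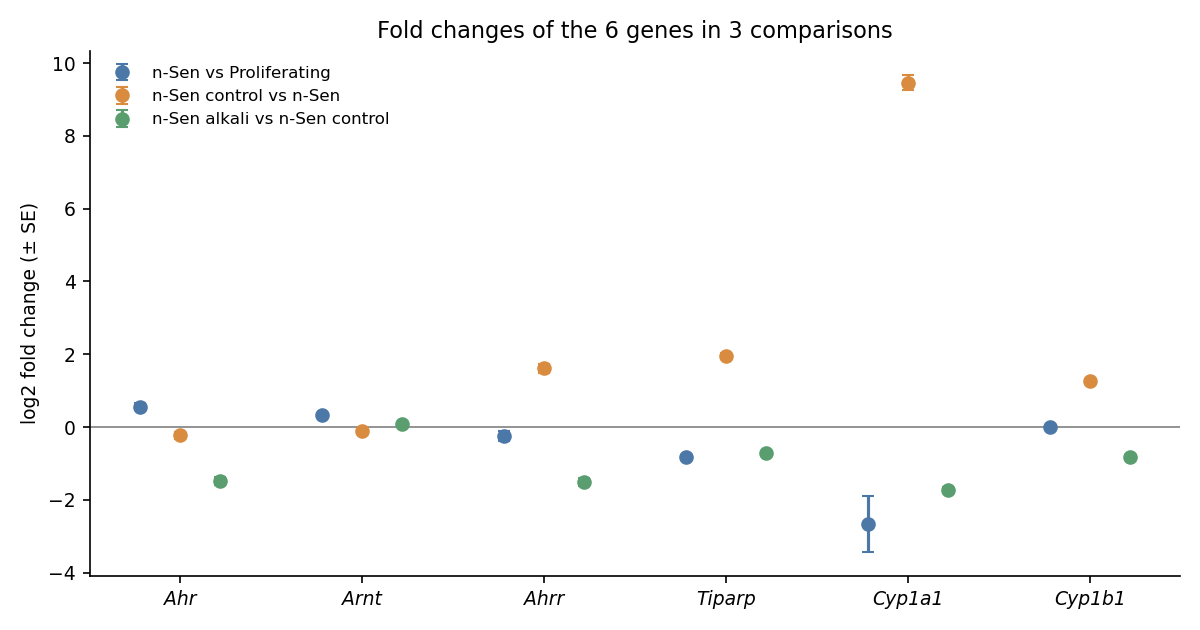
The log2 fold change of each gene (y axis, points; bars are ± 1 SE) in the 3 comparisons (colours), for the 6 genes along the x axis. Cyp1a1 reaches 9.46 in n-Sen_control against n-Sen, and 5 of the 6 points of n-Sen_alkali against n-Sen_control lie below 0.

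**Figure D3:**
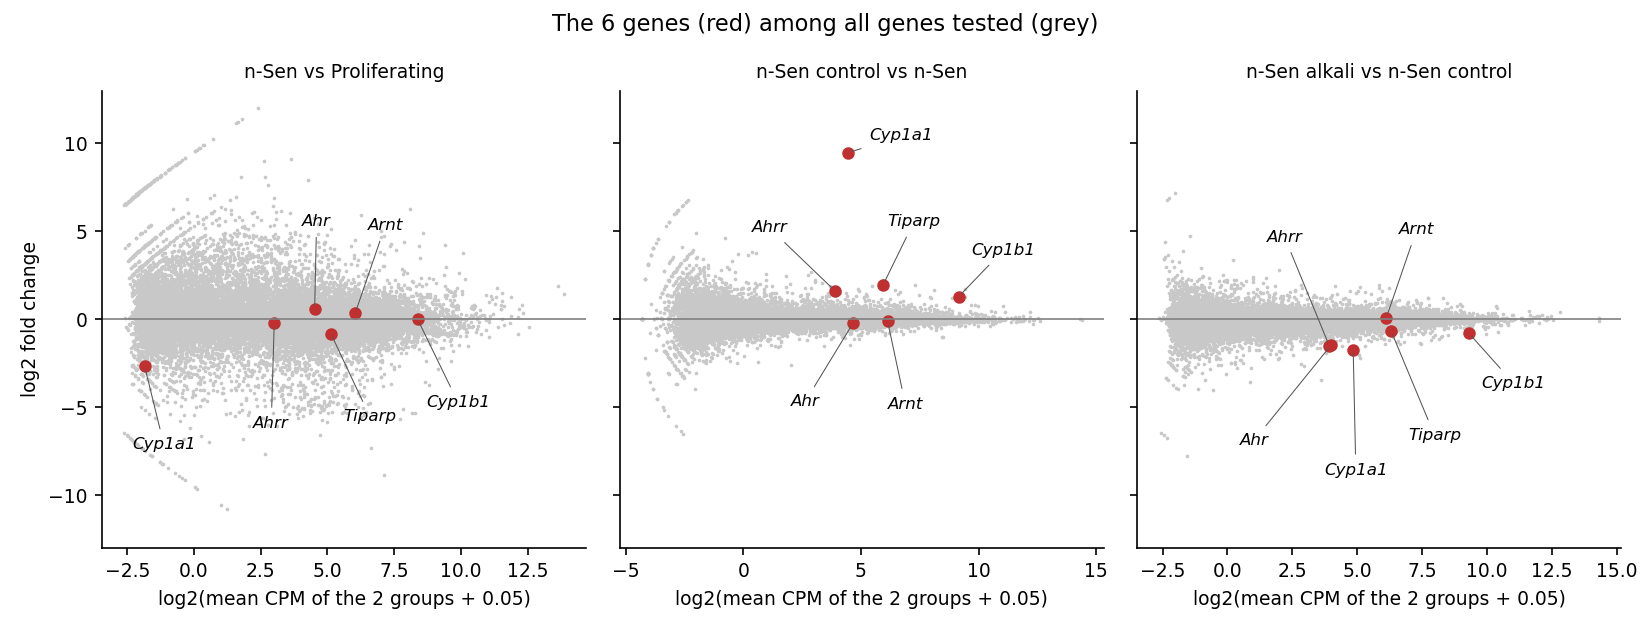
The log2 fold change (y axis) against the mean level of the 2 groups compared (x axis, log2 of CPM + 0.05) for all genes tested (grey) and the 6 genes (red), one panel per comparison. Cyp1a1 is the highest point of the middle panel, at 9.46, while in the left panel the 6 genes lie among many genes of larger change.

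For each of the 6 genes, the 3 genes of most similar pattern over the 8 libraries were sought among 12693 genes, by the root mean square (RMS) difference of centred log2 levels. The libraries share their groups, so these distances describe the pattern only. For Ahr they were Sorbs2, Arhgap6 and Rasl11a (RMS 0.113, 0.149 and 0.157), and Sorbs2 measured 74.8, 128, 97.6 and 37.3 CPM in proliferating, n-Sen, control and alkaline cells. For Arnt they were Tor1aip1, Mia3 and Atg9a, each at 0.040. For Ahrr they were Smpd3 (0.213), the immediate early gene Egr1 (0.23) and Cyp1b1 (0.262). Egr1 measured 69.2, 42.3, 133 and 56.7 CPM in the same order. For Tiparp they were Serpinb2 (0.223), the cystine transporter gene Slc7a11 (0.233) and the thioredoxin reductase gene Txnrd1 (0.292). For Cyp1b1 they were the transporter gene Slc16a11 (0.133), Osgin1 (0.168) and Fhod3 (0.186). The nearest to Cyp1a1, Sema7a, Btc and Aldh1a3, were 1.596, 1.598 and 1.643 away, with Pearson correlations of 0.877, 0.931 and 0.810. Sema7a measured 7.48, 18.8, 69.7 and 73.6 CPM in the same order of groups. The distance grows with the range of a gene over the libraries, so distances are not comparable between the 6 genes.

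Beyond the 6 genes, 6 lists cover the rest of the pathway. The lists were chosen with earlier results of these data known, so their calls and adjusted p are also given as a description. Of their 87 genes, 75 were tested in n-Sen against proliferating cells, where 30 passed upward and 29 downward (median log2 fold change 0.10). Of 76 tested in n-Sen_control against n-Sen, 14 passed upward and 14 downward (0.0050). Of 75 tested in n-Sen_alkali against n-Sen_control, 17 passed upward and 22 downward (-0.073). Over all genes tested, 34.0% passed upward and 33.1% downward in n-Sen against proliferating cells. The shares were 6.18% and 4.96% in n-Sen_control against n-Sen, and 9.58% and 10.4% between the media. The 14 downward calls became 7 to 8 when any 1 of the 4 libraries was left out, and the 17 upward calls became 10 without n-Sen_alkali replicate 2. Exons of 32 of the 87 genes overlap those of another gene, so their counts are uncertain to that extent. Among the genes named below these are Tbl3, Ncoa1, Ncoa3, Ddb1, Smarca4, Arntl, Arnt2, Hif1a, Serpinb2, Nedd9, Ereg, Ecm1, Il4i1, Ephx1, Cyb5r3, Alas1, Hmox2, Ndrg1, Bnip3 and Slc2a1, and the Ugt1a genes, which share exons with each other.

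Other reported AHR targets numbered 24. In n-Sen_control against n-Sen, 19 were tested, 6 rose, 1 fell and 12 did not pass (median 0.34). Nqo1, the quinone reductase that is also a target of the oxidant-responsive factor NRF2, rose from 64.6 ± 7.44 to 253 ± 4.11 CPM (1.97 ± 0.0661, adjusted p = 1.18e-14). Ereg, a ligand of the EGF receptor, rose from 51.6 to 149.8 CPM (1.54 ± 0.0535), and Ptgs2, which encodes cyclooxygenase-2, from 412 to 980.1 CPM (1.25 ± 0.0456). Serpinb2, a plasminogen activator inhibitor, rose from 1.98 to 12.6 CPM (2.67 ± 0.168, adjusted p = 3.21e-10). Socs2 (0.84 ± 0.109) and Nfe2l2, which encodes NRF2 (0.39 ± 0.0627), were the other genes that rose. Nedd9, a scaffold protein of focal adhesions, fell from 94.7 to 59.2 CPM (-0.68 ± 0.0663). Cyp1a2, Aldh3a1, Cyp2a5, Fgf21 and Il22 were too low to be tested in any comparison.

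In n-Sen_alkali against n-Sen_control, 19 of these targets were tested, 3 rose, 10 fell and 6 did not pass (median -0.45). Nqo1 fell from 253 to 96.3 CPM (-1.40 ± 0.0488, adjusted p = 5.06e-15). Ecm1, an extracellular matrix protein, fell from 420 to 298 CPM (-0.50 ± 0.0452). Ptgs2 rose further, to 1634 ± 50.2 CPM (0.73 ± 0.0371), and Nedd9 rose to 121 CPM (1.02 ± 0.0572). Hes1, a Notch target, rose too (0.23 ± 0.064, adjusted p = 0.0123), but was not called without n-Sen_alkali replicate 2 (adjusted p = 0.0547) or n-Sen_control replicate 1 (0.175). So Ptgs2 and Nedd9 went the other way from Cyp1a1 and Nqo1 in alkaline medium.

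In n-Sen against proliferating cells, 18 of the targets were tested, 10 rose, 3 fell and 5 did not pass (median 0.58). Ecm1 rose from 122 to 416 CPM (1.77 ± 0.061), Nedd9 from 28.3 to 94.7 CPM (1.74 ± 0.0754) and Socs2, a suppressor of cytokine signalling, from 3.96 to 11.4 CPM (1.53 ± 0.143). Slc7a5, an amino acid transporter that carries tryptophan and kynurenine, fell from 183 to 56.2 CPM (-1.70 ± 0.0566, adjusted p = 3.73e-14). Serpinb2 fell as well (-0.94 ± 0.219). Gsta1, a glutathione transferase, fell by 1.67 ± 0.617 at 0.165 to 0.536 CPM, and its call (adjusted p = 0.0241) was lost when either n-Sen library was left out (0.213 without replicate 1, 0.0504 without replicate 2), or proliferating replicate 2 (0.193). Without n-Sen replicate 2 its log2 fold change was -2.3. Nqo1 (-0.090 ± 0.0761) and Ptgs2 (0.013 ± 0.0535) did not pass.

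**Figure D4:**
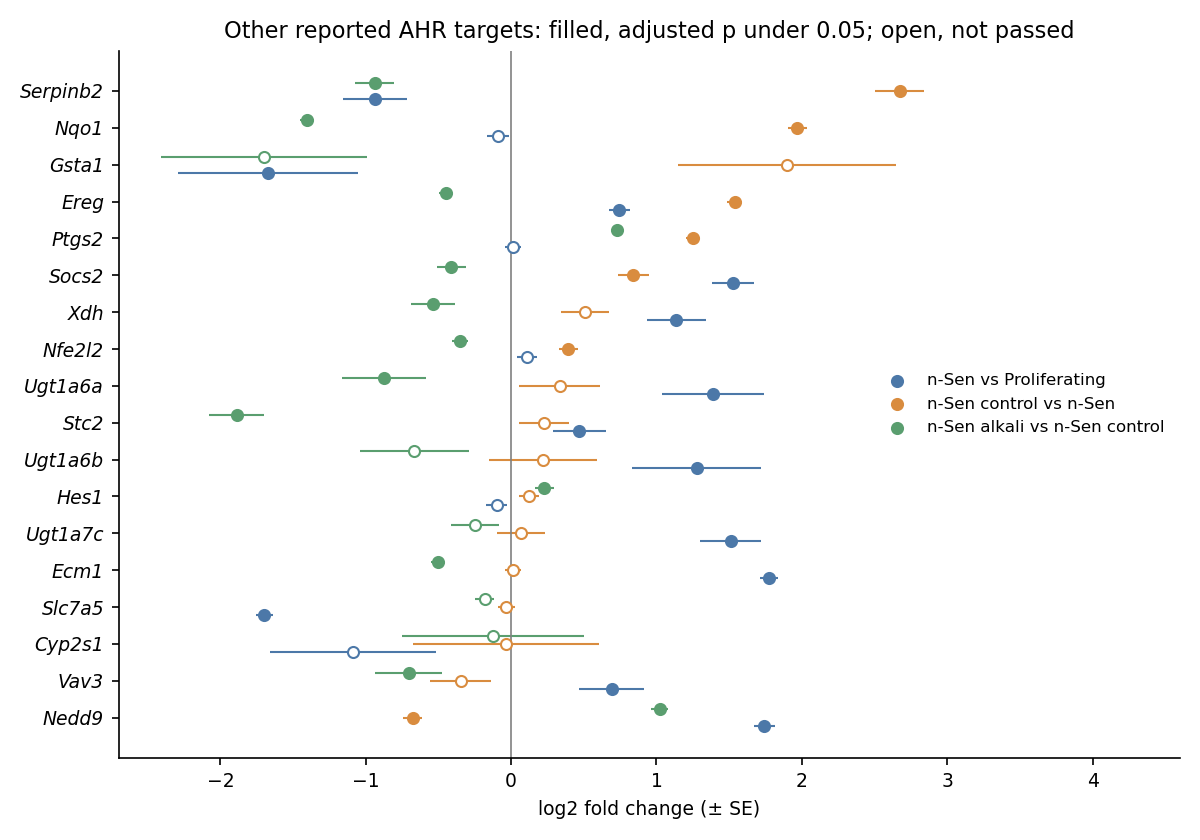
Log2 fold change (x axis; bars are ± 1 SE) of the 18 other reported AHR targets tested in all 3 comparisons (y axis; colours are the comparisons), filled where the adjusted p was under 0.05. Nqo1 lies at 1.97 for n-Sen_control against n-Sen and at -1.40 for n-Sen_alkali against n-Sen_control, while Ptgs2 lies above 0 in both.

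The list of chaperones, cofactors and degradation factors of AHR has 16 genes, all tested. In n-Sen against proliferating cells 11 fell, 2 rose and 3 did not pass (median -0.33). The HSP90 genes Hsp90ab1 and Hsp90aa1 fell from 2829 to 1386 CPM (-1.03 ± 0.0392) and from 1306 to 672 CPM (-0.96 ± 0.0422), and the p23 gene Ptges3 from 209 to 98.5 CPM (-1.08 ± 0.0531). Tbl3 fell as well (-0.93 ± 0.073). The coactivator gene Ncoa1 rose (0.77 ± 0.108). In n-Sen_control against n-Sen, 3 fell, 1 rose and 12 did not pass (-0.089). Ncoa3 (-0.26 ± 0.0738), Cul4b (-0.21 ± 0.0606), part of an AHR ubiquitin ligase, and Smarca4 (-0.17 ± 0.0493) fell, but leaving out any 1 of the 4 libraries ended these calls, with adjusted p from 0.0549 to 0.255, 0.0532 to 0.282 and 0.122 to 0.208.

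Alkaline medium, set against control medium, left 4 of the 16 higher and 1 lower, and 11 did not pass (median 0.0062). Ddb1 and Smarca4 rose by 0.16 ± 0.0371 and 0.14 ± 0.0463. The coactivator gene Ncoa2 fell by 0.24 ± 0.0668. Ddb1 was not called without n-Sen_alkali replicate 2 (adjusted p = 0.0511), nor was Smarca4 (0.413). Smarca4 was also not called without n-Sen_control replicate 1 or 2 (0.0605 and 0.0573), and Ncoa2 not without n-Sen_alkali replicate 1 or n-Sen_control replicate 2 (0.0702 and 0.0872). Hsp90aa1, Hsp90ab1 and Ptges3 did not pass in either medium comparison.

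Of 13 other bHLH-PAS factors, the family of AHR and ARNT, 12 were tested. In n-Sen against proliferating cells 5 rose, 4 fell and 3 did not pass (median 0.23). Epas1, which encodes HIF-2 alpha, rose from 13.6 to 67.6 CPM (2.31 ± 0.0782) and Hif1a from 152 to 235 CPM (0.62 ± 0.0587). The repressor gene Sim2 fell from 33.8 to 8.16 CPM (-2.05 ± 0.104), with its relative Sim1 (-1.48 ± 0.336), the clock gene Arntl (-0.52 ± 0.0785) and Npas4 (-0.64 ± 0.189). Npas4 was not called without n-Sen replicate 2 (adjusted p = 0.0713). Of the 12, 1 rose in n-Sen_control against n-Sen, 2 fell and 9 did not pass (-0.039). Hif1a fell to 176 CPM (-0.41 ± 0.0522). The fall of Epas1 (-0.23 ± 0.0649) was lost without any 1 of the 4 libraries (adjusted p from 0.0697 to 0.216), and the rise of Arntl (0.27 ± 0.0715) without n-Sen_control replicate 2 or either n-Sen library (0.176, 0.125 and 0.0773).

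Between the media, 2 of the 12 rose in n-Sen_alkali, 4 fell and 6 did not pass (median -0.20). Arntl rose from 32.1 to 58.3 CPM (0.85 ± 0.0665, adjusted p = 1.59e-09), the largest change of the list's called genes. Hif1a rose slightly (0.18 ± 0.0446), with adjusted p = 0.0578 without n-Sen_alkali replicate 1. Epas1 fell to 38.0 CPM (-0.61 ± 0.0651). Arnt2, a close relative of Arnt, fell from 22.1 to 16.6 CPM (-0.42 ± 0.0916), while the log2 fold change of Arnt itself was 0.086.

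The list of enzymes that lead from tryptophan to AHR ligands has 13 genes. In n-Sen against proliferating cells 8 were tested, 3 rose, 4 fell and 1 did not pass (median -0.31), most of them below 4 CPM. Il4i1, an amino acid oxidase that makes AHR ligands from tryptophan, rose from 9.17 to 19.9 CPM (1.13 ± 0.115). Aadat (2.15 ± 0.537) and Kyat1 (0.76 ± 0.229), aminotransferases of the kynurenine route, rose too. Tph1, which opens the serotonin route, fell from 2.19 to 0.227 CPM (-3.30 ± 0.46), and Ido2 fell by 2.32 ± 0.693. Leaving out n-Sen replicate 1 moved Tph1 to -4.27 and leaving out n-Sen replicate 2 moved it to -2.67. The calls of Aadat (without n-Sen replicate 2, adjusted p = 0.0687), Kyat1 (without n-Sen replicate 1, 0.109) and Ido2 (without n-Sen replicate 1 or 2 or proliferating replicate 1; 0.0545, 0.103 and 0.0572) each rested on single libraries. None of the genes tested passed in n-Sen_control against n-Sen (8 tested, median 0.051) or in n-Sen_alkali against n-Sen_control (7 tested, -0.088).

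The list of 9 partners of P450 enzymes holds genes that supply electrons and haem or process their products, and the haem oxygenase genes Hmox1 and Hmox2. In n-Sen against proliferating cells 4 rose, 3 fell and 2 did not pass (median 0.17). Ephx1, the microsomal epoxide hydrolase, rose from 81.5 to 323.5 CPM (1.99 ± 0.0543), and the electron donors Cyb5r3 (1.17 ± 0.0577) and Cyb5a (0.75 ± 0.072) and the haem oxygenase gene Hmox1 (0.51 ± 0.0693) also rose. Por, the reductase that feeds all microsomal P450 enzymes, fell from 156 to 134 CPM (-0.22 ± 0.0527), with Cyb5b (-0.25 ± 0.0501) and Pgrmc1 (-0.17 ± 0.0556). Pgrmc1 was not called without n-Sen replicate 1 (adjusted p = 0.271). In n-Sen_control against n-Sen, 3 rose, 2 fell and 4 did not pass (0.049). Hmox1 rose from 321 to 1069 CPM (1.74 ± 0.061, adjusted p = 1.9e-14) and Alas1, the first enzyme of haem synthesis, from 48.3 to 64.6 CPM (0.42 ± 0.0789).

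Smaller changes of the same comparison were those of Pgrmc1 (0.23 ± 0.0506), Ephx1 (-0.22 ± 0.0471) and Hmox2 (-0.26 ± 0.0764). Pgrmc1 was not called without n-Sen_control replicate 2 (adjusted p = 0.0555) or n-Sen replicate 1 (0.124), Ephx1 without n-Sen_control replicate 1 (0.0594), and Hmox2 without any 1 of the 4 libraries (0.0912 to 0.205). Between the media, 6 of the 9 fell in n-Sen_alkali, 1 rose and 2 did not pass (median -0.23). Ephx1 (-0.37 ± 0.0433), Cyb5r3 (-0.33 ± 0.0391), Cyb5a (-0.42 ± 0.0644) and Pgrmc1 (-0.25 ± 0.0458) fell. Por fell by 0.23 ± 0.0477, and Hmox1, at 943 CPM, by only 0.19 ± 0.0376. Cyb5b rose (0.16 ± 0.0436), with adjusted p = 0.152 without n-Sen_alkali replicate 1.

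Targets of HIF, the other route that uses ARNT, numbered 12 and all were tested. In n-Sen against proliferating cells 6 rose, 4 fell and 2 did not pass (median 0.28). P4ha1, a collagen prolyl hydroxylase, rose from 159 to 358 CPM (1.18 ± 0.0519) and Pdk1 from 12.6 to 24.4 CPM (0.95 ± 0.104). The vasodilator peptide gene Adm fell from 75.6 to 28.5 CPM (-1.40 ± 0.0746), with Egln3 (-2.09 ± 0.15), Ndrg1 (-1.17 ± 0.137) and the glucose transporter gene Slc2a1 (-0.36 ± 0.0598). In n-Sen_control against n-Sen, 3 rose, 6 fell and 3 did not pass (-0.35). Vegfa, the angiogenic growth factor gene, rose from 119 to 191 CPM (0.68 ± 0.0516), with Ndrg1 (1.31 ± 0.126) and Slc2a1 (0.35 ± 0.0605). Pdk1 (-0.79 ± 0.106) and Bnip3 (-0.72 ± 0.0972) fell.

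In n-Sen_alkali against n-Sen_control, 7 HIF targets rose, 1 fell and 4 did not pass (median 0.25). Vegfa rose from 191 to 436 CPM (1.19 ± 0.0421, adjusted p = 5.06e-15), Slc2a1 from 108 to 155 CPM (0.52 ± 0.0537) and P4ha1 from 283 to 336 CPM (0.24 ± 0.0418). Adm alone fell, from 21.7 to 5.66 CPM (-1.95 ± 0.115, adjusted p = 1.41e-11). In this comparison the called genes of the HIF list were mostly higher and those of the list of other AHR targets mostly lower. Over all genes tested 9.58% were called upward and 10.4% downward, and the difference between the lists was not tested.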

How the data were processed

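The upstream tools are DESeq2 1.34.0, Subread 2.0.2 with featureCounts, HISAT2 2.1.0 and fastp 0.23.2, and the build is mm10, per the submitters' processing notes. Strand setting and annotation release are not given in the sources used here. The authors deposited 2 tables of expected counts (estimated counts, 32.7% to 33.7% of nonzero values fractional), which were rounded to whole numbers. GENCODE vM21 on GRCm38 (mm10) gave symbols, exon lengths and coordinates, with a symbol for 54809 rows. No blank or total row was present.

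Genes passed filterByExpr and TMM scaling in edgeR 4.0.16 (R 4.3.3) and were tested by the quasi-likelihood test with Benjamini-Hochberg adjustment over all genes tested (0.05). The comparison between tables used all 8 libraries, the others their own 4. The SE is the absolute log2 fold change divided by the square root of F. The biological coefficient of variation was 0.0646, 0.0618 and 0.0579. Replicates differed beyond sampling noise (chi-square per degree of freedom 4.63 to 7.39). The edgeR test across genes was also run on simulated counts. The pattern search, the motif search and the shares without overlap were not. Alternatives were RLE scaling, no low-count filter, DESeq2 1.42.0, a replicate block, another set of libraries in the fit, and each library left out.

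The 6 genes and all lists were chosen with earlier results of these data known. From each list the text names up to 4 called genes of smallest p per comparison and called genes that moved against the majority of the called ones. For each of the 6 genes it names the 3 of most similar pattern (log2 of CPM + 0.5, mean of at least 1 CPM, ordinary symbol). A few genes named by this rule are left out of the text. Any other list gene was named after its values were seen.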

Additional observations from a re-analysis of the deposited data

How the results depend on the processing

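Of 162 alternative fold changes of the 6 genes, 6 changed sign, all of them alternatives to 2 small values. These were Cyp1b1 in n-Sen against proliferating cells (-0.0065, up to 0.0258) and Arnt in n-Sen_alkali against n-Sen_control (0.086, -0.0065 without n-Sen_control replicate 1). Cyp1a1 in n-Sen against proliferating cells, which rests on 36 and 6 counts, had a leave-one-out range of -3.3 to -2.15. These refits reuse the libraries from which the 6 genes were chosen. Whether the 6 genes kept their side of the threshold is therefore not counted. Of 2021 values of the pathway genes, 1886 kept their side, 112 lost the call and 23 gained it; 71 changed sign, none of them a called value. In n-Sen_control against n-Sen, leaving out 1 library gave 1181 to 1382 genes called (2253 with all), 731 to 816 higher (1250) and 450 to 569 lower (1003), and 7 to 8 pathway genes lower (14). In n-Sen_alkali against n-Sen_control it gave 10 to 15 pathway genes higher (17). A lone library was assumed to vary like the other groups. Depth limits the level of Cyp1a1 in n-Sen.

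Pairing by replicate number was not visible: deviations of same-numbered libraries correlated between -0.071 and 0.0721. Such small values cannot exclude a shared origin of same-numbered libraries. With the replicate number as a block, 12726, 2078 and 4310 genes were called in the 3 comparisons, and Cyp1a1 was at -2.67, 9.47 and -1.72.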
